A study of Mus musculus with 30 samples.

Results

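The clustered protocadherins are 58 of the 55421 genes in a count table of 30 polyA RNA-seq libraries from mouse E14 embryonic stem cells. They were chosen by name and not by their values. Every identifier that maps to a Pcdha, Pcdhb or Pcdhg symbol of these clusters was taken, which gave 14 alpha, 22 beta and 22 gamma genes. The study compared 5 lines, each left untreated or treated for 24 h, which makes 10 groups of 3 libraries. The control line carries Tir1 alone, the plant F-box protein that auxin uses to direct degron-tagged (AID) proteins to the proteasome. The PDS5AB line adds PDS5A-AID and PDS5B-AID to Tir1, and the WAPL line adds WAPL-AID. Tir1 and the same AID tags are joined by NIPBL-FKBP and RAD21-Halo in the lines named PDS5AB-NIPBL and WAPL-NIPBL. The first 3 lines were treated with 500 µM auxin, and both NIPBL lines with 500 µM auxin plus 500 nM dTAG-13, which degrades FKBP-tagged proteins. All 5 lines therefore carry Tir1, NIPBL was never depleted alone, and each line is a single named cell line. Nothing in the labels says whether replicates came from separate cultures, so the p-values measure only the spread between these libraries.

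Clustered protocadherins are cell-surface adhesion proteins that give neurons individual identities. Each alpha and gamma gene has its own promoter and a large variable exon, which is spliced to constant exons that all genes of the cluster share, while each beta gene is a single exon. In neurons each cell uses only a few of these promoters, and CTCF and cohesin bring a chosen promoter to enhancers beyond the end of the cluster. NIPBL loads and drives cohesin, WAPL releases it from DNA, and PDS5A and PDS5B help both to release it and to stop it at CTCF. The C-type genes (Pcdhac1, Pcdhac2, Pcdhgc3, Pcdhgc4 and Pcdhgc5) lie at the ends of the alpha and gamma clusters and are regulated apart from the rest.

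All 58 genes lie on the plus strand of chromosome 18 (GRCm38). The alpha cluster spans bases 36930184 to 37187661, the beta cluster 37264938 to 37524479 and the gamma cluster 37661793 to 37841873. Order within a cluster below is the order of the gene starts. The counts are fragments assigned to 1 gene only, and no option for reads on overlapping genes or for strand was recorded in the file header. Exon bases shared with another gene therefore add little to a gene's count. Bases that belong to 1 gene only, called countable here, numbered 404 to 3028 per alpha gene (median 2475), 1107 to 8695 per beta gene (median 3714) and 0 to 4614 per gamma gene (median 2587). Pcdhga10 had no such base but still received 13 fragments over all 30 libraries, so shared bases were not wholly lost and levels per countable base are approximate. Its variable exon lies opposite the antisense gene Gm26672, which also covers part of Pcdhgb7, Pcdhga11 and Pcdhga12. The symbol Pcdha11 belongs to a pair of separate alpha genes, ENSMUSG00000007440 and ENSMUSG00000102206.

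Library totals ran from 19632704 to 45539021 fragments, and no 2 libraries were identical. Tagging acts on proteins, so transcript levels do not check the depletions: Wapl changed by -0.04 (log2) in the WAPL line and Nipbl by -0.01 and -0.11 in the 2 NIPBL lines, none of them past the test, while Pds5a fell by 0.46 in the PDS5AB line (edgeR adjusted p = 0.000373). Some tagged genes already had fewer transcripts without treatment. Pds5a stood at 83.4 CPM in untreated PDS5AB and 99.5 CPM in untreated PDS5AB-NIPBL cells against 224 CPM in control cells, Wapl at 176 CPM in the WAPL line against 291 CPM, and Nipbl at 70.0 CPM in the WAPL-NIPBL line against 134 CPM. Wapl in WAPL-NIPBL (298 CPM), Nipbl in PDS5AB-NIPBL (121 CPM) and Pds5b in both PDS5AB lines (113 and 140 CPM, 110 in control cells) were not called lower. The part of these levels in the untreated differences below was not tested. All 8 pluripotency markers were detected in every group. Their sum ranged from 6240 to 6990 CPM in untreated and from 4170 to 4530 CPM in treated PDS5AB libraries. All 8 fell there, where 20.2% of all tested genes fell. The sum of 6 endoderm markers ranged from 16.9 to 21.6 CPM untreated and from 47.7 to 61.2 CPM treated in the same libraries. In the WAPL line the endoderm sum ranged from 8.60 to 11.4 CPM untreated and from 34.7 to 50.0 CPM treated, in the PDS5AB-NIPBL line from 6.09 to 7.93 and from 13.5 to 18.1 CPM, and in the WAPL-NIPBL line from 3.81 to 3.84 and from 7.72 to 9.52 CPM. Of the 8 pluripotency markers 6 fell in each of the WAPL, PDS5AB-NIPBL and WAPL-NIPBL lines, where 15.8%, 8.06% and 3.45% of all tested genes fell. In WAPL cells their sum ranged from 6260 to 6500 CPM untreated and from 4940 to 5150 CPM treated. Of 14 neural markers 10 were tested, and 4 rose and 3 fell after PDS5AB depletion and 3 rose and 2 fell after WAPL depletion (median log2 change 0.12 and 0.27, beside 0.04 and 0.00 over all tested genes). Of all tested genes 46.0% and 32.8% were called in these 2 lines. The largest changes in WAPL cells were in Pax6 (3.22 ± 0.458, log2, SE, edgeR adjusted p = 2.06e-06), Sox1 (-1.33, edgeR adjusted p = 6.62e-08) and Elavl3 (0.78, edgeR adjusted p = 0.000816). The sum of the 14 ranged from 405 to 433 CPM untreated and from 363 to 397 CPM treated in PDS5AB cells. It ranged from 409 to 446 and from 341 to 363 CPM in WAPL cells, and from 485 to 540 and from 398 to 422 CPM in control cells. In control cells 0 rose and 4 fell, where 19.9% of all tested genes were called. Stmn2 gave the largest part of these sums. CPM here are fragment counts scaled to TMM-adjusted library size, and these are pools of cells, so more cells using a promoter and more RNA per cell cannot be told apart. The sum of 6 trophoblast markers ranged from 91.3 to 98.4 CPM untreated and from 142 to 147 CPM with auxin in control cells, from 67.0 to 77.3 and from 99.5 to 127 CPM in PDS5AB cells, and from 82.4 to 99.3 and from 35.3 to 40.1 CPM in WAPL cells. Of the 5 trophoblast markers tested, 2 rose and 0 fell in control cells, where 19.9% of all tested genes were called. In PDS5AB and in WAPL cells 2 rose and 1 fell, against 46.0% and 32.8%. Krt18 and Krt8 rose in both, and Tfap2c fell (log2 change -0.55 in PDS5AB and -2.15 in WAPL cells). Tfap2c went from a mean of 81.7 to 18.4 CPM in WAPL cells, so the fall of that sum is its own. The part of differentiation markers in the protocadherin results was not tested. The libraries numbered 1 to 21 hold the untreated control line and both PDS5AB groups, and those from 25 on hold all others, the auxin-treated control included. Number set and treatment cannot be told apart in the control line, nor number set and line in the untreated comparisons of the other 3 lines.

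The 3 clusters stood at different levels (plot of summed CPM by cluster). Over all 30 libraries the gamma genes gave 34052 fragments, the beta genes 1464 and the alpha genes 858. In untreated control cells the gamma cluster summed to 42.4 ± 0.389 CPM (SD, n = 3), the beta cluster to 0.579 ± 0.185 CPM and the alpha cluster to 0.155 ± 0.0185 CPM. A gene passed the filter for testing, about 10 fragments in at least 3 libraries of typical depth, in 32 of 58 cases: 6 alpha, 5 beta and 21 gamma genes. In all, 10 of the 58 genes never exceeded 3 fragments in any library. Of the 11 alpha and beta genes that passed, 10 had their highest group mean in the PDS5AB line and 1 in the PDS5AB-NIPBL line. Such a gene had to differ somewhere to be tested at all, so counts of called alpha and beta genes and their p-values are descriptions only.

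**Figure D1:**
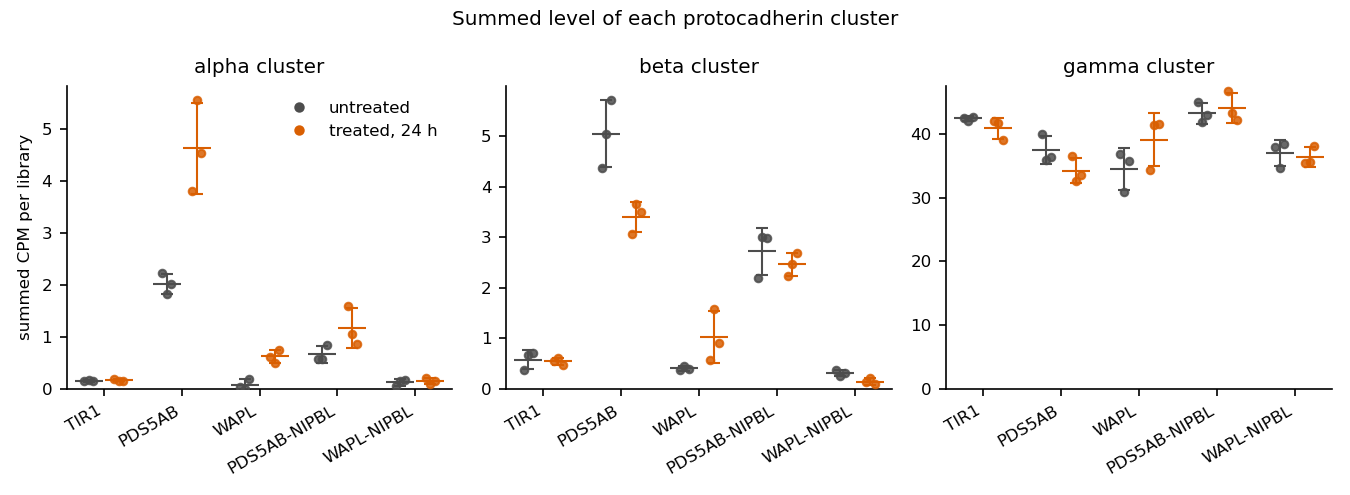
Summed level of all genes of each cluster in every library (y axis, CPM, linear and starting at 0, with a different scale in each panel), in the 5 lines untreated (grey) and after 24 h of treatment (orange). Points are libraries, and bars are the mean ± SD of 3. The alpha sum is highest in treated PDS5AB cells (4.63), the beta sum in untreated PDS5AB cells (5.05), and the gamma sums all lie between 30.8 and 46.7.

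A gene was called when its edgeR quasi-likelihood test gave a Benjamini-Hochberg adjusted p under 0.05 over all 19868 genes tested. By that rule 1 of the 32 tested protocadherins changed with auxin in the control line, and it was lower, where 19.9% of all tested genes changed (10.4% higher, 9.59% lower). After PDS5AB depletion 13 were called (6 higher, 7 lower) against 46.0% of all genes (25.8% higher, 20.2% lower). After WAPL depletion 9 were (8 higher, 1 lower) against 32.8% (17% higher, 15.8% lower). After combined depletion 8 were called in the PDS5AB-NIPBL line (4 higher, 4 lower) against 19.5% (11.4% higher, 8.06% lower), and 4 without treated replicate 1 or 5 without untreated replicate 1. In the WAPL-NIPBL line 4 were called (2 higher, 2 lower) against 8.57% (5.11% higher, 3.45% lower), and 2 without untreated replicate 1. As percentages of the 32 these are 3.12, 40.6, 28.1, 25.0 and 12.5, which lie near or below the background, so the counts alone are no result about the family.

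The alpha cluster was almost silent in control cells, and its summed level was higher in treated than in untreated PDS5AB, WAPL and PDS5AB-NIPBL libraries. The 3 untreated control libraries held 4, 4 and 4 alpha fragments in all, and the auxin-treated ones 6, 7 and 6. Untreated PDS5AB libraries already held 66, 55 and 73 fragments, a summed level of 2.02 ± 0.204 CPM (SD, n = 3) that was 13 times that of untreated control cells. After auxin they held 102, 170 and 139 fragments, 4.63 ± 0.876 CPM and 2.29 times the untreated level, and the 2 groups did not overlap. In the WAPL line the libraries went from 1, 0 and 5 fragments to 16, 17 and 25, and every treated library was above every untreated one. The ratio of 8.20 between these WAPL sums rests on 6 untreated fragments: without the untreated library that holds 5 of them, the log2 ratio was 5.33 in place of 3.04.

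Both NIPBL lines had smaller alpha sums than the PDS5AB line. The PDS5AB-NIPBL libraries held 16, 13 and 26 fragments untreated and 35, 21 and 24 treated. The summed level of 0.663 ± 0.163 CPM went to 1.17 ± 0.379 CPM (SD, n = 3), with the highest untreated library (0.851 CPM) just under the lowest treated one (0.859 CPM). WAPL-NIPBL libraries held 1, 4 and 5 fragments untreated and 5, 3 and 5 treated, and these groups overlapped. They are other clones. The untreated libraries had no dTAG-13, so their smaller sums are a difference between lines. In the treated libraries line and NIPBL depletion cannot be told apart.

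Pcdha3 gave the most fragments of the alpha genes in both PDS5AB groups. It gave 20, 12 and 14 fragments in untreated and 36, 50 and 30 in treated PDS5AB libraries, with no overlap. It rose by 1.44 ± 0.401 on the log2 scale (SE, edgeR adjusted p = 0.00408). The gene is highest in treated PDS5AB cells, which helped it pass the filter, so its p-values are descriptions only. In the PDS5AB-NIPBL line it went from 1, 0 and 3 to 8, 5 and 5 fragments, a change of 2.32 ± 0.754 (SE, edgeR adjusted p = 0.0288), which was lost without any 1 of 4 of the 6 libraries compared (adjusted p up to 0.124). Control cells held at most 2 Pcdha3 fragments in a library, and WAPL cells at most 3.

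Pcdha2 and the C-type gene Pcdhac2, at opposite ends of the cluster, rose by similar amounts after PDS5AB depletion. Pcdha2 gave 5, 3 and 1 fragments untreated and 10, 14 and 17 treated, a log2 change of 2.24 ± 0.606 (SE, edgeR adjusted p = 0.00375, but 0.0602 by DESeq2). Pcdhac2 gave 4, 2 and 3 untreated and 11, 16 and 13 treated, a log2 change of 2.22 ± 0.575 (SE, edgeR adjusted p = 0.00202). In neither gene did the groups overlap. Both genes are highest in treated PDS5AB cells and passed the filter through them, so their p-values are descriptions only. Pcdhac2 was also the one alpha gene whose PDS5AB change differed from the control line's auxin change in the test of the difference, by 3.39 ± 1.20 (log2, SE, edgeR adjusted p = 0.0358), a call that was lost without any 1 of 6 of the 12 libraries and rests on 5 and 3 control fragments. The other C-type alpha gene, Pcdhac1, gave 5 fragments over all 30 libraries.

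**Figure D2:**
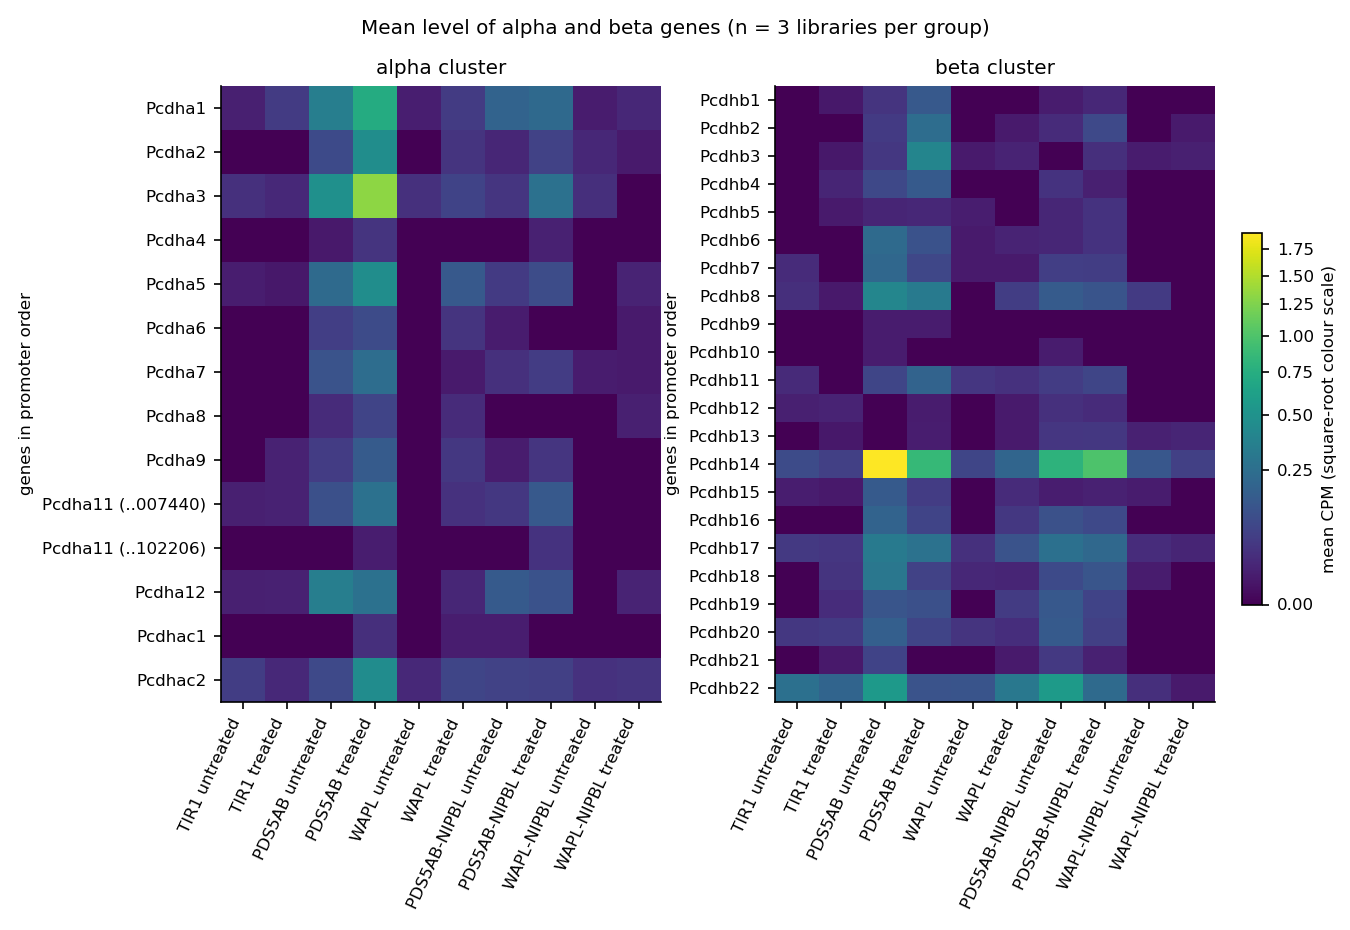
Mean CPM of each alpha (left) and beta (right) gene, in promoter order from top to bottom, in the 10 groups (3 libraries each). Colour gives the mean CPM on a square-root scale. The brightest cells are Pcdhb14 in untreated PDS5AB cells (1.92) and Pcdha3 in treated PDS5AB cells (1.32), and most cells are at or near 0.

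Pcdha5 was the alpha gene called in the WAPL line. No untreated WAPL library held a Pcdha5 fragment, and the treated ones held 4, 5 and 5. That is at least 4.31-fold higher, with 3 counts over the untreated group as the floor (edgeR adjusted p = 0.00464). In PDS5AB libraries Pcdha5 gave 11, 3 and 8 fragments untreated and 12, 15 and 14 treated, and its edgeR adjusted p there was 0.120. Pcdha1 and Pcdha12, the other abundant alpha genes, were not called in any treatment effect. Pcdha12, near the end of the cluster, gave 34 fragments in untreated and 24 in treated PDS5AB cells.

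Part of the alpha difference was present before any auxin was added. Of the 32 tested genes, 13 differed between untreated PDS5AB and untreated control cells (10 higher, 3 lower), against 32% of all genes (15.5% higher, 16.5% lower), and 5 of the higher ones were alpha genes. With the compared groups alone the count was 5. Endoderm markers moved with this difference: their sum ranged from 5.53 to 6.47 CPM in untreated control and from 16.9 to 21.6 CPM in untreated PDS5AB libraries, and 4 of the 6 were called higher (median log2 difference 1.51, beside 0.00 over all tested genes). The sum of 6 mesoderm markers ranged from 15.1 to 18.9 CPM in control and from 21.8 to 34.2 CPM in PDS5AB libraries (2 called higher, 1 lower, median 0.57). Of the 10 tested neural markers 3 were called higher and 2 lower. The part of these markers in the alpha difference was not tested. Pcdha1 gave 10, 11 and 13 fragments in untreated PDS5AB libraries against 0, 1 and 0 in control libraries, a ratio of 27.6 (95% counting interval 4.63 to 1120). Pcdha3 gave 46 fragments against 3, a ratio of 12.5 (interval 4.01 to 62.6). Untreated PDS5AB-NIPBL cells, compared with the same control libraries, held 12 called genes (8 higher, 4 lower) against 34.3% of all genes (16.5% higher, 17.8% lower), and 7 with the compared groups alone. Their endoderm sum ranged from 6.09 to 7.93 CPM and their mesoderm sum from 25.0 to 35.1 CPM (2 mesoderm markers called higher, 1 lower, median 0.71). Their Pcdha1 count was 16 fragments against 1 (ratio 15.4, interval 2.39 to 644). These intervals cover counting error only. No alpha gene was called in untreated WAPL or WAPL-NIPBL cells. Both of these lines had 6 called genes, all lower than in control cells, and the WAPL count was 3 without WAPL untreated replicate 2. In all genes 14% (6.62% higher, 7.39% lower) and 28% (13.4% higher, 14.6% lower) were called.

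The beta cluster was also low in control cells and raised in untreated PDS5AB cells, but its sum was lower, not higher, after PDS5A and PDS5B depletion. Untreated PDS5AB libraries summed to 4.38, 5.05 and 5.71 CPM, which was 8.72 times the mean of untreated control libraries (0.367, 0.660 and 0.709 CPM). After auxin they summed to 3.06, 3.65 and 3.49 CPM, 0.674 times the untreated level, and the groups did not overlap. In the WAPL line the sum went from 0.370, 0.458 and 0.393 to 0.575, 1.58 and 0.906 CPM, again without overlap. In untreated PDS5AB-NIPBL cells the sum of 2.72 ± 0.464 CPM was 4.71 times the control mean, and treatment left it at 2.46 ± 0.227 CPM (SD, n = 3), with overlapping libraries. WAPL-NIPBL cells had the lowest beta sums, 0.313 ± 0.0662 CPM untreated and 0.144 ± 0.0648 CPM treated, from 24 and 13 fragments, and these libraries did not overlap.

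Pcdhb14 supplied the largest part of the beta fragments in PDS5AB cells, 37.8% of them untreated and 25.2% treated. It gave 52, 64 and 69 fragments in untreated PDS5AB libraries against 4, 1 and 3 in untreated control libraries, higher by 4.18 ± 0.413 on the log2 scale (SE). Auxin took it to 23, 22 and 31 fragments, a fall of 1.15 with an SE of 0.292 (edgeR adjusted p = 0.00167). The gene is highest in untreated PDS5AB cells, so its p-values are descriptions only. In PDS5AB-NIPBL cells it stood at 18, 22 and 25 fragments untreated and 18, 20 and 33 treated. The test of the difference between these 2 treatment effects gave 1.48 ± 0.434 (log2, SE, edgeR adjusted p = 0.0275), and it was lost without any 1 of 4 of the 12 libraries (adjusted p up to 0.0870). Only this gene and Pcdhga2, both higher, passed that test of the difference, against 9.46% of all genes (4.97% higher, 4.48% lower). With the replicate block Pcdhga1 passed as well (0.69, edgeR adjusted p = 0.0268, against 0.0986 without it).

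Pcdhb22, the last beta gene, and Pcdhb3, near the start, moved in opposite directions in PDS5AB cells. Pcdhb22 went from 9, 16 and 30 fragments to 4, 5 and 2, and fell by 2.13 on the log2 scale (SE 0.518, edgeR adjusted p = 0.00116). Pcdhb3 went from 0, 3 and 2 fragments to 10, 10 and 15, a rise of 2.84 ± 0.728 (log2, SE, edgeR adjusted p = 0.00223, but 0.0735 by DESeq2). Neither gene's groups overlapped. Pcdhb3 is highest in treated PDS5AB cells and passed the filter through them, and Pcdhb22 is highest in untreated PDS5AB-NIPBL cells. The p-values of both are therefore descriptions only. In PDS5AB-NIPBL cells Pcdhb22 went from 19, 13 and 14 to 8, 3 and 5 fragments, with an edgeR adjusted p of 0.0694 that became 0.0377 with the replicate block. In WAPL cells Pcdhb22 went the other way, from 3, 5 and 3 to 5, 18 and 7 fragments (edgeR adjusted p = 0.0799).

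Of the 5 tested beta genes, Pcdhb14 and Pcdhb22 were called in the direct test between the PDS5AB and WAPL effects. The difference was -2.48 ± 0.631 (log2, SE) for Pcdhb14 and -3.41 ± 0.765 for Pcdhb22, given as descriptions because both have their highest levels in the PDS5AB or PDS5AB-NIPBL line. They were among 7 protocadherins, all with the lower value in PDS5AB cells, that passed this test, against 12.5% of all genes (7.38% higher, 5.11% lower). Pcdhb8 and Pcdhb17 had more fragments in untreated PDS5AB than in control cells and were not called in any treatment effect. Pcdhb8 gave 40 fragments against 3 (ratio 10.8, 95% counting interval 3.45 to 54.8). Pcdhb17 gave 30 against 4 (log2 difference 2.52 ± 0.751, SE). Pcdhb1, the first beta gene, gave 21 fragments over all libraries, 17 of them in the PDS5AB line.

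The gamma cluster was expressed in every group, and its treated and untreated sums overlapped in every line. Sums were 42.5, 42 and 42.7 CPM in untreated control libraries and 36.5, 32.6 and 33.6 CPM in treated PDS5AB libraries, the group with the lowest mean (34.2 ± 1.98 CPM, SD, n = 3). In PDS5AB cells each treated library was lower than the untreated one of the same number (40, 35.9 and 36.4 CPM untreated). Before treatment the mean sums of the PDS5AB, WAPL and WAPL-NIPBL lines were 0.883, 0.813 and 0.872 times that of control cells, with no overlap, and that of the PDS5AB-NIPBL line 1.02 times, with overlap. TMM scaling matters for such small differences: without it every PDS5AB treatment effect would shift by 0.15 on the log2 scale, and the gamma sum ratio there would be 0.03 in place of -0.13. The shift was 0.08 or less in the other 4 lines.

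Levels of gamma genes can be compared with each other per kilobase of countable exon (plot of gamma levels along the cluster). In untreated control cells the C-type gene Pcdhgc3 was highest, at 3.96 ± 0.461 CPM per countable kilobase (SD, n = 3). Next came Pcdhga11 at 1.96 ± 0.360, Pcdhgb8 at 1.56 ± 0.223, Pcdhga12 at 1.55 ± 0.0755 and the first gene, Pcdhga1, at 1.25 ± 0.350 CPM per countable kilobase, and neighbours among these 4 differed by less than the sum of their SDs. Genes in the middle of the cluster were lower, with Pcdhga6 lowest at 0.0343 ± 0.00754. The other C-type genes stood far below Pcdhgc3, Pcdhgc4 at 0.165 ± 0.0470 and Pcdhgc5 at 0.281 ± 0.00847.

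**Figure D3:**
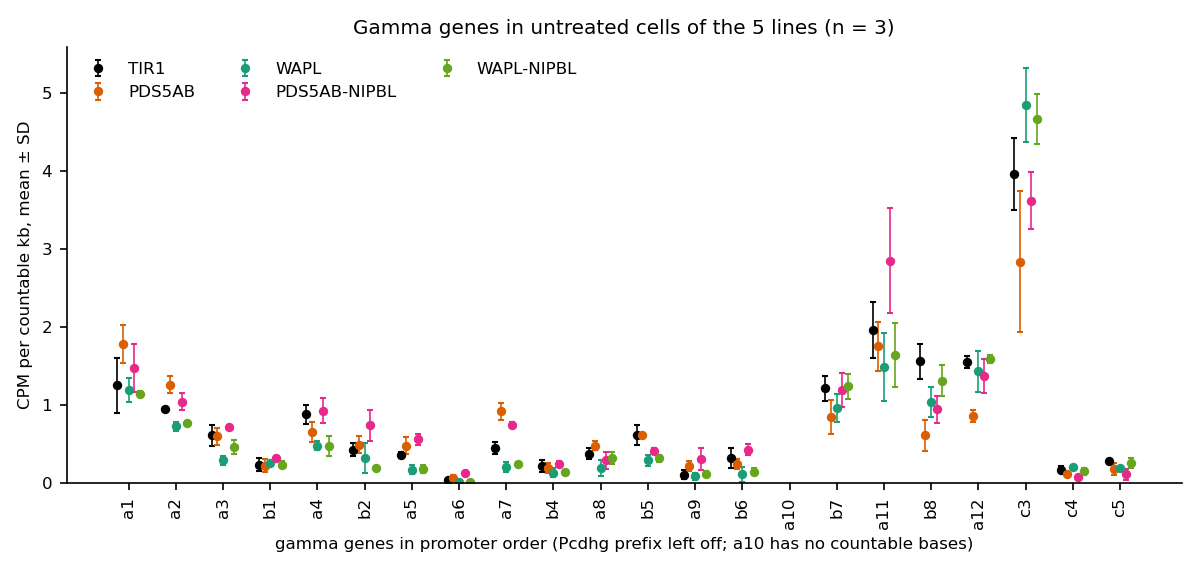
Level of each gamma gene in untreated cells of the 5 lines (y axis, CPM per kilobase of countable exon, linear from 0), in promoter order along the x axis. Points are means and bars SD over 3 libraries. Pcdhgc3 is highest in all 5 lines, and Pcdhgb8 and Pcdhga12 are lowest in PDS5AB cells.

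Within these sums the balance between genes differed after depletion, by position in the array (plot of change by promoter order). The array holds 19 A and B genes, of which Pcdhga10 was not tested. In each degron line the log2 changes of the other 18 were on balance lower in the later part of the array than in the earlier part. This was no steady decline: in PDS5AB cells the values were -0.44, -0.28 and -0.52 for the first 3 genes, between -0.22 and 0.32 for the next 7, and between -1.19 and 0.19 for the 8 tested genes after them. The Spearman correlation across genes between promoter order and log2 change was -0.47 for PDS5AB, -0.71 for WAPL, -0.72 for PDS5AB-NIPBL and -0.63 for WAPL-NIPBL, and 0.04 for auxin in the control line. These correlations are descriptions over 18 genes of 1 locus, which are not independent and share their libraries. The median log2 change of the first 9 genes was -0.18, 1.16, 0.25 and 0.62 in that order of lines, and that of the last tested 9 was -0.72, -0.32, -0.79 and -0.25. In control cells the medians were -0.26 and 0.05. Over all tested genes the median lay between -0.01 and 0.04 in the 5 effects.

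**Figure D4:**
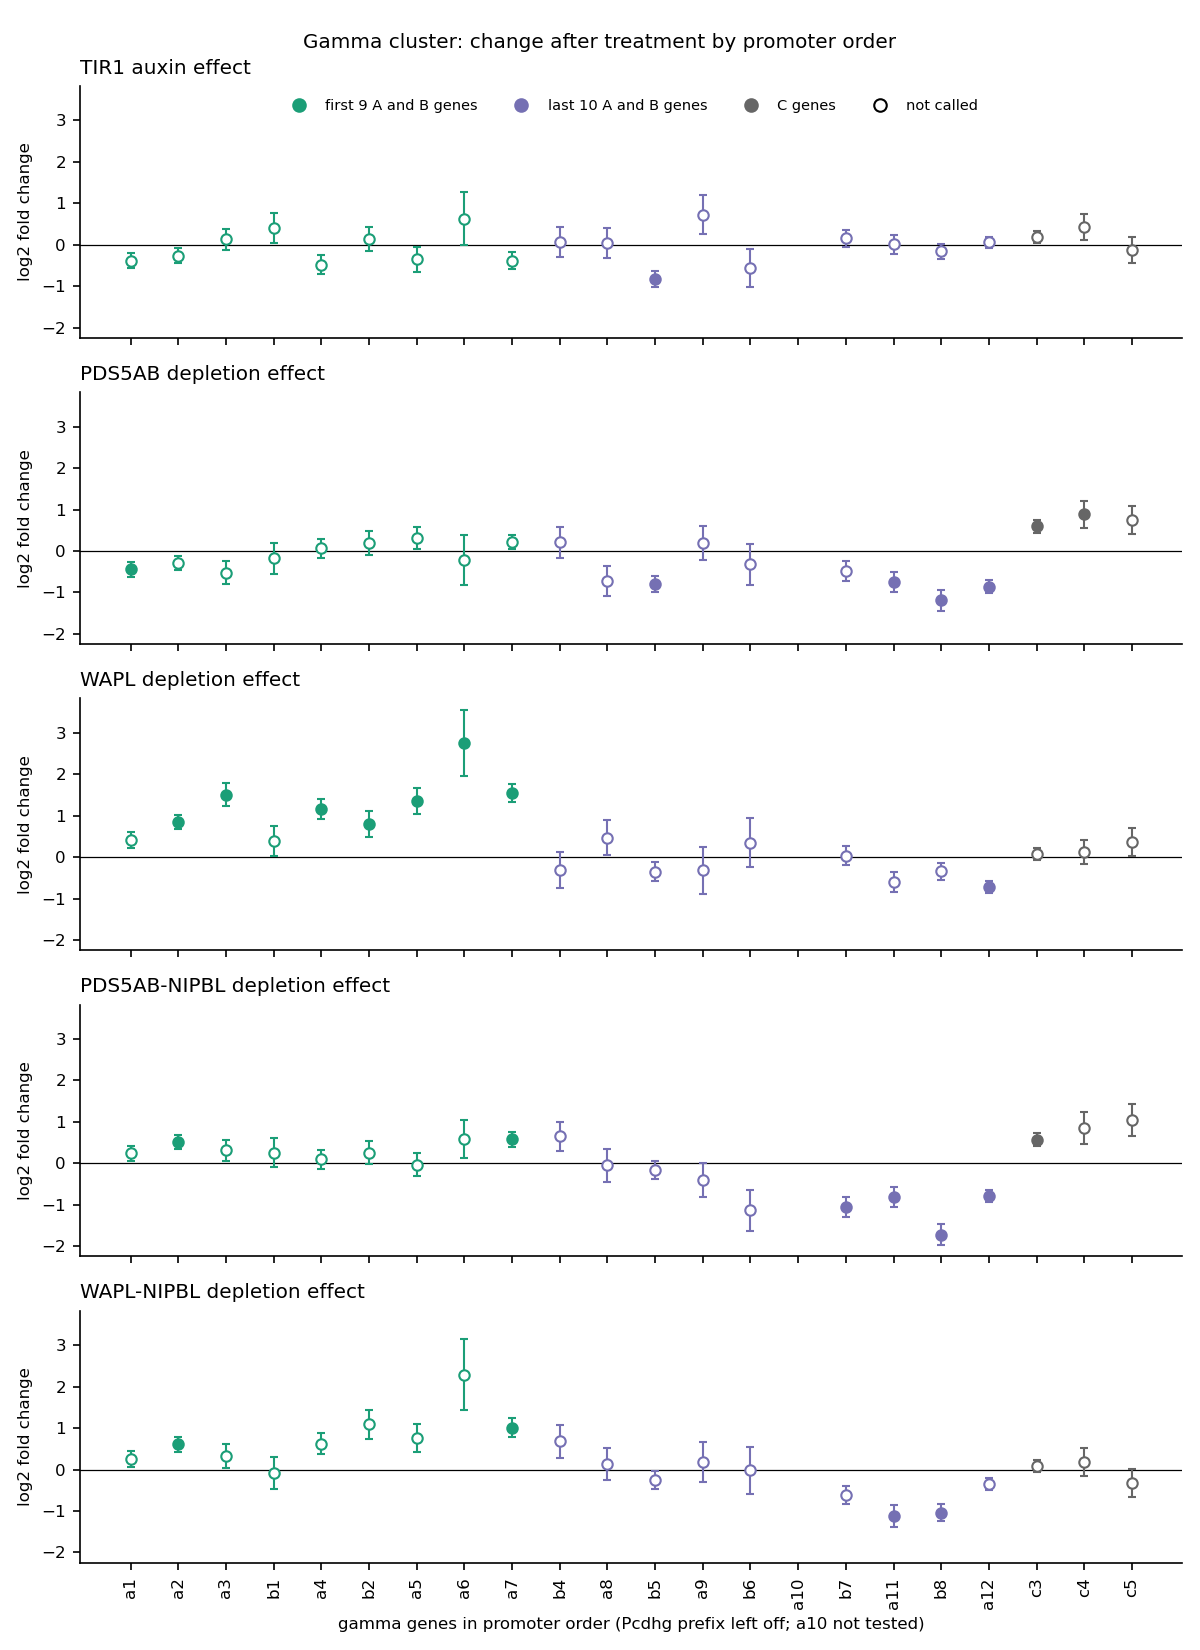
Log2 fold change after treatment (y axis, error bars ± SE) of each tested gamma gene in promoter order (x axis), 1 panel per line. Filled points passed the test (edgeR adjusted p under 0.05) and open points did not. Green marks the first 9 A and B genes, purple the later ones and grey the C genes. In the 4 depletion panels the last A and B genes lie lower than most genes before them, and in the PDS5AB panel the first 3 genes lie low as well.

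The same pattern can be read without any scaling, as the share of A and B fragments that came from the first 9 of the 19 genes (plot of that share by library). The boundary after the ninth gene was chosen after the values were seen, so no test is given. Control libraries had 34.4%, 38% and 42.9% untreated and 41.1%, 35.9% and 33.1% with auxin, which overlap. PDS5AB libraries went from 48.3%, 57.3% and 53.7% to 62.4%, 62.3% and 60.0%. WAPL libraries went from 36.1%, 41.5% and 38% to 59.1%, 60.9% and 59.8%. In these 2 lines, as in the NIPBL lines, every treated library was above every untreated one. PDS5AB-NIPBL libraries went from 44.3%, 52.3% and 43% to 68.0%, 59.9% and 61.8%, and WAPL-NIPBL libraries from 33.3%, 36.4% and 34.7% to 46.5%, 52.4% and 53.8%. The mean differences were 8.49, 21.4, 16.7 and 16.1 percentage points, beside -1.77 in control cells. With the boundary after the sixth gene they were 2.51, 15.4, 12.4 and 12, beside -0.949, and after the twelfth 6.48, 19, 18.6 and 16.9, beside -4.51, so the size of the PDS5AB difference depends on where the boundary is set. Without the 3 genes that overlap Gm26672 they were 5.78, 15.4, 10.4 and 13.4, beside 1.46.

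**Figure D5:**
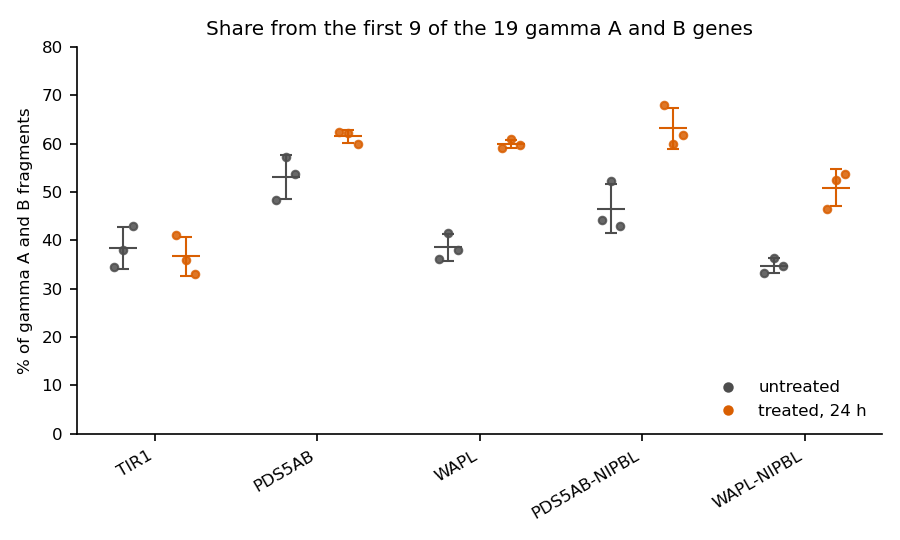
Percentage of the fragments of the 19 gamma A and B genes that came from the first 9 of them (y axis, linear from 0) in each library, untreated (grey) and treated (orange). Points are libraries, and bars mean ± SD of 3. The treated means are 61.6, 60.0, 63.2 and 50.9 in the 4 degron lines and 36.7 in the control line.

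In the WAPL line the sum of the first 9 genes went from 9.23 ± 0.336 to 16.7 ± 2.61 CPM (SD, n = 3) and that of the last 10 from 14.8 ± 2.18 to 11.1 ± 1.52 CPM. Of the first 9 genes, a group set after the values were seen, 7 rose and none fell, where 17% of all tested genes rose and 15.8% fell. Pcdhga7, the ninth gene, went from 0.340, 0.599 and 0.630 CPM to 1.65, 1.32 and 1.57 CPM. That is a rise of 1.54 ± 0.219 (log2, SE, edgeR adjusted p = 1.96e-06). Pcdhga3 went from 0.927, 0.635 and 0.669 to 1.15, 3.02 and 2.18 CPM, a rise of 1.51 ± 0.285 (edgeR adjusted p = 0.000111). Pcdhga4 went from 0.710, 0.846 and 0.669 to 1.57, 1.56 and 1.84 CPM, a rise of 1.16 ± 0.240 (edgeR adjusted p = 0.000353). The treated libraries of these 3 genes were all above the untreated ones.

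Further rises in the same stretch of the WAPL line were 1.35 ± 0.318 (log2, SE) for Pcdhga5 and 0.84 ± 0.173 for Pcdhga2, with edgeR adjusted p of 0.00135 and 0.000303. Pcdhgb2 rose by 0.80 (edgeR adjusted p = 0.0442), but without treated replicate 3, untreated replicate 2 or untreated replicate 3 the adjusted p was 0.264, 0.290 or 0.0525. Pcdhga6 was scarce: 1, 0 and 1 fragments untreated and 3, 8 and 6 treated, a ratio of 7.85 (95% counting interval 1.86 to 70.1, edgeR adjusted p = 0.00835). The first gene, Pcdhga1, had 2.93, 3.84 and 3.35 CPM untreated and 3.57, 4.96 and 4.84 CPM treated, and did not pass (edgeR adjusted p = 0.0907).

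These WAPL rises began from lower levels than in control cells. Pcdhga7 stood at 1.32, 1.14 and 0.922 CPM in untreated control libraries, above each untreated WAPL library, and it was lower in the WAPL line by 1.13 on the log2 scale (SE 0.230, edgeR adjusted p = 0.00114). Pcdhga3 was lower by 1.08, Pcdhga4 by 0.89 and Pcdhga5 by 1.06 before treatment, calls that were each lost when 1 of 2 or 3 of the 6 libraries was left out. After auxin the WAPL means for Pcdhga3 (2.12 CPM) and Pcdhga4 (1.66 CPM) were near or above those of untreated control cells (1.59 and 1.38 CPM). The part of these lower untreated levels in the rises was not tested. The test of the difference from the auxin effect in control cells was passed by 7 protocadherins (6 higher, 1 lower) against 20.7% of all genes (9.86% higher, 10.9% lower). It gave 1.93 ± 0.301 (log2, SE) for Pcdhga7, 1.70 ± 0.437 for Pcdhga5 and 1.64 ± 0.335 for Pcdhga4, with edgeR adjusted p of 2.01e-05, 0.00529 and 0.000571.

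Of the last 10 genes 9 were tested, and 4 fell and none rose in each of the PDS5AB and PDS5AB-NIPBL lines, where 20.2% and 8.06% of all tested genes fell. One of the PDS5AB falls was that of Pcdhgb5, which fell by a like amount with auxin in control cells. Their sum went from 14.6 ± 1.56 to 9.32 ± 0.220 CPM (SD, n = 3) in PDS5AB cells and from 19.2 ± 2.23 to 12 ± 0.931 CPM in PDS5AB-NIPBL cells. The sums of the first 9 went from 16.5 ± 1.37 to 14.9 ± 0.534 CPM and from 16.7 ± 1.53 to 20.7 ± 2.39 CPM. Pcdhga12, the last A gene, went from 3.71, 3.70 and 3.15 to 1.86, 1.99 and 1.93 CPM in PDS5AB cells and from 6.60, 4.79 and 5.60 to 3.46, 3.69 and 2.76 CPM in PDS5AB-NIPBL cells. It fell by 0.86 (log2, SE 0.159, edgeR adjusted p = 4.93e-05) and by 0.79 (SE 0.150, edgeR adjusted p = 0.000250). Pcdhga12 also fell by 0.71 in WAPL cells (SE 0.143, edgeR adjusted p = 0.000246), from 7.14, 5.15 and 5.39 to 3.72, 3.32 and 3.81 CPM. Groups did not overlap in any of these 3 lines. WAPL-NIPBL cells had 6.73, 6.34 and 6.60 CPM untreated and 6.06, 4.50 and 4.96 CPM treated, with an edgeR adjusted p of 0.128 that became 0.0376 with the replicate block. In control cells auxin left the gene at 6.69 ± 0.380 CPM from 6.41 ± 0.311 CPM (SD, n = 3).

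Pcdhgb8, the last B gene, fell in 3 of the 4 degron lines. It went from 2.06, 1.12 and 1.35 to 0.485, 0.784 and 0.686 CPM in PDS5AB cells, a fall of 1.19 (log2, SE 0.249, edgeR adjusted p = 0.000223). In PDS5AB-NIPBL cells it went from 2.47, 1.87 and 2.72 to 0.820, 0.657 and 0.680 CPM, a fall of 1.72 (SE 0.248, edgeR adjusted p = 6.38e-06). In WAPL-NIPBL cells it went from 3.08, 2.89 and 3.84 to 1.34, 1.44 and 1.94 CPM, a fall of 1.04 (SE 0.209, edgeR adjusted p = 0.00109). No treated library reached an untreated one in these lines. In WAPL cells it had 2.69, 2.08 and 3.03 CPM untreated and 1.96, 2.17 and 2.00 CPM treated and did not pass (log2 change -0.34, edgeR adjusted p = 0.210). Its PDS5AB and WAPL effects differed by -0.85 (edgeR adjusted p = 0.0844, and 0.0492 with the replicate block). The difference between WAPL-NIPBL and WAPL was not past the test.

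Both upstream neighbours of Pcdhgb8 also fell in PDS5AB-NIPBL cells. Pcdhga11 fell by 0.75 in PDS5AB cells, by 0.81 in PDS5AB-NIPBL cells and by 1.13 in WAPL-NIPBL cells, with edgeR adjusted p of 0.0128, 0.0130 and 0.00482. Each of these calls was lost without untreated replicate 1 of its line, which gave 0.0533, 0.115 and 0.0504, and the PDS5AB-NIPBL call also without treated replicate 1 (0.0864). Pcdhgb7 fell by 1.06 in PDS5AB-NIPBL cells (SE 0.241, edgeR adjusted p = 0.00188), from 2.26, 1.74 and 2.52 to 1.00, 1.16 and 1.00 CPM. The antisense gene Gm26672, which overlaps both, changed by -0.64 ± 0.418 (log2, SE) in these cells and was not called in any of the 5 effects.

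Pcdhgb8 and Pcdhga12 were low in untreated PDS5AB cells too, and Pcdhga11, which lies just before them, was not. Pcdhgb8 was lower there than in untreated control cells by 1.37 (log2, SE 0.206, edgeR adjusted p = 3.98e-06) and Pcdhga12 by 0.87 (SE 0.144, edgeR adjusted p = 1.66e-05), while Pcdhga7 was higher by 1.05 ± 0.189 (edgeR adjusted p = 5.22e-05). Pcdhga11 had 1.75 CPM per countable kilobase there against 1.96 in control cells (log2 difference -0.16, edgeR adjusted p = 0.649) and 2.85 in untreated PDS5AB-NIPBL cells (0.54, edgeR adjusted p = 0.0637, and 0.0459 with the replicate block). That block matches libraries of different lines by number, and these did not deviate together (correlations -0.0804 to 0.0366), so the blocked value has no pairing behind it. Pcdhgb8 was lower in untreated PDS5AB-NIPBL cells too, by 0.72 (edgeR adjusted p = 0.00598), and Pcdhga7 higher by 0.75 ± 0.195 (edgeR adjusted p = 0.00345). The share of A and B fragments from the first 9 genes was 53.1 ± 4.51% and 46.5 ± 5.04% (SD, n = 3) in these untreated lines, against 38.4 ± 4.27% in untreated control cells. In untreated PDS5AB-NIPBL cells Pcdhga9 was also higher than in control cells, by 1.54 ± 0.451 (edgeR adjusted p = 0.00886). Pcdhga6 gave 10, 8 and 9 fragments there against 3, 2 and 2 in control libraries, a description only, since it is highest in that line and passed the filter through it. Untreated WAPL and WAPL-NIPBL cells had 38.5 ± 2.72% and 34.8 ± 1.57%. Before auxin, then, both lines with tagged PDS5A and PDS5B had a higher share than control cells, and the PDS5AB-NIPBL libraries (lowest 43%) did not overlap the control ones (highest 42.9%).

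The first genes of the array differed between PDS5AB and WAPL depletion in the direct test. Pcdhga1 went from 4.38, 5.75 and 4.99 to 3.28, 4.08 and 3.79 CPM in PDS5AB cells, a fall of 0.44 (log2, SE 0.181, edgeR adjusted p = 0.0488) that was lost without any 1 of 4 of the 6 libraries (adjusted p up to 0.195). The difference between the PDS5AB and WAPL effects was -2.03 ± 0.399 (log2, SE) for Pcdhga3, -1.34 ± 0.279 for Pcdhga7 and -1.13 ± 0.240 for Pcdhga2, with edgeR adjusted p of 0.000742, 0.00135 and 0.00174. For Pcdhga1 and Pcdhga4 it was -0.85 and -1.09, calls lost without any 1 of 5 and of 7 of the 12 libraries. In the test against auxin in control cells, PDS5AB depletion had 3 called genes (1 higher, 2 lower) against 26.3% of all genes (13.9% higher, 12.4% lower). These were Pcdhac2 and the 3′ genes Pcdhgb8 (-1.03 ± 0.313, edgeR adjusted p = 0.0146, and 0.0720 without untreated PDS5AB replicate 1) and Pcdhga12 (-0.93 ± 0.209, edgeR adjusted p = 0.00137).

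Among the first 9 genes of the array, a group set after the values were seen, 2 rose in each NIPBL line, Pcdhga7 and Pcdhga2. Of all tested genes 11.4% rose in the PDS5AB-NIPBL line and 5.11% in the WAPL-NIPBL line. In WAPL-NIPBL cells Pcdhga7 went from 0.569, 0.670 and 0.559 to 1.17, 1.38 and 1.10 CPM, a rise of 1.01 ± 0.223 (log2, SE, edgeR adjusted p = 0.00284) with no overlap. Pcdhga2 went from 1.99, 2.01 and 1.92 to 2.73, 3.28 and 3.02 CPM, a rise of 0.61 ± 0.176 (edgeR adjusted p = 0.0247) that was lost without any 1 of 5 of the 6 libraries (adjusted p up to 0.0957). Pcdhgb2 stood at an edgeR adjusted p of 0.0501, and at 0.0146 with the replicate block. In the direct comparison of the WAPL-NIPBL and WAPL effects edgeR called 0 of the 32 genes, against 5.19% of all genes (3.03% higher, 2.16% lower). At an unadjusted p under 0.05 there were 6, DESeq2 called 0, and the replicate block called 2, Pcdhb8 and Pcdhga3 (adjusted p of 0.0274 and 0.05). For Pcdhga3 that difference was -1.18 (log2).

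In PDS5AB-NIPBL cells Pcdhga7 went from 1.97, 1.78 and 1.93 to 3.05, 2.78 and 2.72 CPM. It rose by 0.58 ± 0.179 (log2, SE, edgeR adjusted p = 0.0199), a call lost without any 1 of 3 of the 6 libraries (adjusted p up to 0.0796). Pcdhga2 rose by 0.51 ± 0.171 (edgeR adjusted p = 0.0324) from 2.76, 2.87 and 2.36 to 4.87, 3.13 and 3.37 CPM, and was lost without any 1 of 3 libraries (adjusted p up to 0.299). In PDS5AB cells without NIPBL depletion Pcdhga2 had 3.10, 3.57 and 3.09 CPM untreated and 2.91, 2.61 and 2.51 CPM treated. The 2 effects on Pcdhga2 differed by 0.79 ± 0.238 (log2, SE, edgeR adjusted p = 0.0319), a call lost without any 1 of 5 of the 12 libraries (adjusted p up to 0.127).

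The C-type genes at the very end of the cluster were not called lower after any treatment. Pcdhgc3 went from 6.95, 3.70 and 4.86 to 9.77, 6.40 and 7.41 CPM in PDS5AB cells, with overlapping groups in which each same-numbered pair rose, and from 7.35, 6.09 and 6.35 to 10.5, 9.65 and 9.35 CPM in PDS5AB-NIPBL cells without overlap. The rises were 0.60 ± 0.156 (edgeR adjusted p = 0.00197) and 0.57 ± 0.155 (edgeR adjusted p = 0.00797), as log2 ± SE. The untreated PDS5AB level was itself below that of control cells (8.12, 6.47 and 7.02 CPM), by 0.48 on the log2 scale (edgeR adjusted p = 0.0178, lost without any 1 of 3 of the 6 libraries, adjusted p up to 0.164). Per countable kilobase Pcdhgc3 went from 2.84 to 4.32 CPM in PDS5AB cells, beside 3.96 and 4.52 CPM in control cells without and with auxin. In the fit to the compared groups alone the PDS5AB treatment value had an adjusted p of 0.0617. With the replicate block its PDS5AB effect also differed from the WAPL effect (0.54, adjusted p = 0.00433) and from the control auxin effect (0.42, adjusted p = 0.0191), for which the unblocked values were 0.108 and 0.165. The block also pairs the control libraries, whose same-numbered pairs did not deviate together, so the last of these blocked values rests on a pairing not seen there.

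In PDS5AB cells Pcdhgc4 rose by 0.88 ± 0.319 on the log2 scale (edgeR adjusted p = 0.0235), from 10, 13 and 15 to 26, 16 and 22 fragments, and was lost without treated replicate 1 (0.151) or untreated replicate 1 (0.0787). Pcdhgc5 went from 1.08, 0.430 and 0.966 to 1.45, 1.11 and 1.63 CPM there and from 0.143, 0.566 and 0.786 to 1.32, 0.909 and 0.895 CPM in PDS5AB-NIPBL cells. Its edgeR adjusted p of 0.0615 and 0.0545 became 0.0228 and 0.0216 with the replicate block. In WAPL and WAPL-NIPBL cells the 3 C genes had log2 changes between -0.32 and 0.36, and none was called. Pcdhgc5 and Pcdhgc4 were lower in untreated PDS5AB-NIPBL than in control cells, by 1.36 (edgeR adjusted p = 0.00483) and 1.13 (edgeR adjusted p = 0.0181). The Pcdhgc4 call was lost without any 1 of 4 of the 6 libraries (adjusted p up to 0.0823).

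Auxin in control cells changed 1 protocadherin. Pcdhgb5, in the middle of the gamma array, went from 2.13, 3.26 and 3.05 to 1.31, 1.74 and 1.69 CPM, a fall of 0.82 (log2, SE 0.195, edgeR adjusted p = 0.00325). It fell by a like amount, 0.79 (SE 0.197, edgeR adjusted p = 0.00149), in PDS5AB cells, from 2.66, 2.88 and 2.90 to 1.79, 1.47 and 1.63 CPM. In neither line did the groups overlap. The 2 effects differed by 0.03 ± 0.277 (log2, SE, edgeR adjusted p = 0.952). Untreated WAPL cells (1.67, 1.13 and 1.14 CPM) and WAPL-NIPBL cells (1.56, 1.20 and 1.57 CPM) were already below untreated control cells, by 1.08 and 0.96 on the log2 scale (edgeR adjusted p = 0.000502 and 0.000739). Of the tested gamma genes, Pcdhgb1, Pcdhgb4, Pcdhga9 and Pcdhgb6, named after their values were seen, were not called in any treatment effect, and Pcdhga8 passed only with the replicate block, in PDS5AB cells (-0.72, adjusted p = 0.0416, against 0.102 without it).

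A list of 27 genes held cohesin and its cofactors, CTCF, and DNA methylation and silencing factors, many of them known to act on protocadherin promoters. It also held Celsr3, an atypical cadherin that is no promoter regulator. All 27 were tested. In PDS5AB cells 3 rose and 14 fell, where 46.0% of all tested genes were called, and in WAPL cells 5 rose and 9 fell, against 32.8%. In PDS5AB-NIPBL cells 1 rose and 6 fell, against 19.5%, in WAPL-NIPBL cells 0 rose and 4 fell, against 8.57%, and with auxin in control cells 4 rose and 4 fell, against 19.9%. Celsr3 is among the falls in both NIPBL lines. The largest changes in PDS5AB cells were in Trim28, a corepressor that brings H3K9 methylation (-1.32 ± 0.106, log2, SE), Uhrf1, which recruits the maintenance methyltransferase (-0.84 ± 0.0624), and Tet2, a 5-methylcytosine oxidase (-0.81 ± 0.166), with edgeR adjusted p of 3.67e-11, 9.41e-12 and 0.000197. In WAPL cells they were Tet2 (-1.25), Trim28 (-0.52) and Dnmt3a, a de novo DNA methyltransferase (0.45), with edgeR adjusted p of 8.44e-07, 0.000250 and 0.000195. In control cells Dnmt3l, a cofactor of de novo methylation, fell by 1.77 (edgeR adjusted p = 6.04e-11). The part of these changes in the protocadherin results was not tested.

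Protocadherin genes outside the clusters have promoters of their own on other chromosomes or in the flanks. Of 12 listed, 5 were tested, and most of these are low-count genes that passed the filter through the groups in which they are high, so their changes are given without p-values and as descriptions. In PDS5AB cells the log2 change was 1.79 ± 0.349 for Pcdh8, 1.37 ± 0.470 for Pcdh10 and 1.32 ± 0.358 for Pcdh17 (SE). In WAPL cells it was 2.72 ± 0.429 for Pcdh8, 2.10 ± 0.647 for Pcdh17 and 0.77 ± 0.135 for Pcdh19. In PDS5AB-NIPBL cells it was 1.65 ± 0.135 for Pcdh19, 1.45 ± 0.479 for Pcdh8 and -1.13 for Pcdh1, and in WAPL-NIPBL cells -1.46 for Pcdh1. Of 15 adhesion and signalling partners of the protocadherins, all tested, 5 rose and 2 fell in PDS5AB cells and 3 rose and 4 fell in WAPL cells, where 46.0% and 32.8% of all tested genes were called. The largest was Ret, a receptor kinase, in PDS5AB cells (1.23 ± 0.264, edgeR adjusted p = 0.000311), and in WAPL cells Fyn, a kinase of the Src family (0.75 ± 0.124, edgeR adjusted p = 1.89e-05).

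Genes around the clusters were described in the same way. Of 19 flanking genes 17 were tested, and the edgeR test called 7 after PDS5AB depletion and 4 after WAPL depletion, against 46.0% and 32.8% of all tested genes. The combined depletions called 5 (with PDS5AB) and 1 (with WAPL), against 19.5% and 8.57%. Auxin alone called 9, all lower, against 19.9% (9.59% lower). A further gene of the locus, chosen after its values were seen, is 3222401L13Rik, which lies on the same strand just before the first gamma gene and ends at base 37661742. It went from 2.56, 2.36 and 3.27 to 5.18, 5.19 and 4.90 CPM in WAPL cells, a rise of 0.90 ± 0.161 (edgeR adjusted p = 5.24e-05), and rose by 0.47 ± 0.159 in PDS5AB-NIPBL cells (edgeR adjusted p = 0.0370). It is one of 7 tested genes of the locus that are no protocadherins, and the only one of them called in any of the 5 treatment effects.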

How the data were processed

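The deposited table holds raw fragment counts per gene, which the authors made with featureCounts 2.0.1 on the GENCODE vM23 annotation of GRCm38, per the file headers. STAR 2.7.7a, cutadapt and deepTools are named in the submitters' processing notes. Of 55421 gene identifiers 55154 were matched to a symbol. Counts were fitted in edgeR 4.0.16 (R 4.3.3) by the quasi-likelihood test, over all 30 libraries with 10 group means, TMM scaling (factors 0.9497 to 1.131), and genes kept by filterByExpr with a minimum count of 10. This left 19868 genes, 20 residual degrees of freedom and a common biological variation of 9.15%. Adjusted p-values are Benjamini-Hochberg over all tested genes. Treatment effects, untreated differences from the control line and differences between effects were tested. The alternatives were DESeq2 1.42.0, other size factors, no filter, the compared groups alone, each library left out, and the replicate number as a block. Same-numbered treated and untreated libraries deviated together in each degron line (correlations 0.109 to 0.333), but not in the control line (-0.0102 to 0.0574). For treatment effects and their differences the block paired them in all 5 lines, the control line included. For untreated comparisons the block shared the number across lines. There same-numbered degron and control libraries had correlations of 0.0709 to 0.207 for PDS5AB and -0.0808 to 0.0366 for the other lines. The members, gene lists and tests were chosen with earlier results of these data known. Named protocadherins are the 5 C-type genes, the first and last gene of each cluster, the 4 with the highest mean CPM per cluster and the 4 largest called changes per comparison; other names were chosen after their values were seen. From each gene list at most 3 called genes per treatment effect are named, largest first. Intervals cover counting error only. The script was tested on simulated data. No sequences are shown.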

Additional observations from a re-analysis of the deposited data

Results flagged for a closer look

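The effects below differed between lines in a direct test (edgeR, adjusted p under 0.05), on the log2 scale. Between PDS5AB depletion and auxin in control cells the differences were 3.39 for Pcdhac2, -0.93 for Pcdhga12 and -1.03 for Pcdhgb8. Between WAPL depletion and auxin in control cells they were 0.79 for Pcdhga1, 1.10 for Pcdhga2, 1.38 for Pcdhga3, 1.64 for Pcdhga4, 1.70 for Pcdhga5, 1.93 for Pcdhga7 and -0.77 for Pcdhga12. The Pcdhac2 value rests on 5 untreated and 3 treated control fragments and was lost without any 1 of 6 of the 12 libraries. The Pcdhga1 value was lost without any 1 of 6 of the 12 libraries, and the Pcdhga3 value without WAPL treated replicate 2 (adjusted p = 0.0554).

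Between PDS5AB and WAPL depletion the differences were -2.48 for Pcdhb14, -3.41 for Pcdhb22, -0.85 for Pcdhga1, -1.13 for Pcdhga2, -2.03 for Pcdhga3, -1.09 for Pcdhga4 and -1.34 for Pcdhga7. Between PDS5AB-NIPBL and PDS5AB depletion they were 1.48 for Pcdhb14 and 0.79 for Pcdhga2. Both sets of differences from auxin in control cells share the control libraries. Both sets in this paragraph share the PDS5AB libraries, and the lines are separate clones. Pcdhac2, Pcdhb14 and Pcdhb22 have their highest levels in the PDS5AB or PDS5AB-NIPBL line, which let them pass the filter, so their values are descriptions.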

How the results depend on the processing

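Of 90 named results 52 were called under every alternative run, 38 were lost under at least 1 and 0 reversed. Other size factors and the replicate block lost none of them, while the block added calls, most of them given beside the results. DESeq2 lost 3 of the 87 for which it gave an adjusted p, no filter 16 of 90, and the compared groups alone 14 of the 75 whose genes passed the filter there. The count of called protocadherins ranged over left-out libraries from 4 to 9 for PDS5AB-NIPBL depletion (4 without treated replicate 1, 5 without untreated replicate 1), from 2 to 4 for WAPL-NIPBL depletion (2 without untreated replicate 1) and from 3 to 6 for untreated WAPL against control cells (3 without WAPL untreated replicate 2). With the compared groups alone, untreated PDS5AB cells had 5 calls in place of 13 and untreated PDS5AB-NIPBL cells 7 in place of 12. Between PDS5AB-NIPBL and PDS5AB effects 2 calls became 1 by DESeq2, 0 with no filter, 1 with the compared groups alone, 3 with the replicate block and 0 to 3 over left-out libraries. Between WAPL-NIPBL and WAPL effects 0 became 1 with no filter, 2 with the replicate block and 0 to 1 over left-out libraries. The log2 ratio of the alpha sums in WAPL cells ranged from 2.45 to 5.33 over left-out libraries, and that of the gamma sums in PDS5AB cells was 0.03 with library totals alone. Chosen after seeing the data, a boundary after the sixth gene gave share differences of 2.51 points in PDS5AB and 15.4 in WAPL cells, and leaving out the genes that overlap Gm26672 gave 15.4 in WAPL cells. The cause of these changes was not tested. Most alpha and beta genes had too few fragments for a test, so a lack of change was not detectable at this depth.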
